A study of Mus musculus with 17 samples.

Results

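BMP4 was compared with retinoic acid alone in FOXA2-negative cells of mouse neural cultures, through 6 of the 17 RNA libraries in the series. The libraries were chosen by their labels alone, as the 3 FOXA2-negative libraries of the BMP4 arm and the 3 FOXA2-negative libraries of the RA arm. All cells derived from the mouse embryonic stem cell line R1 with a FOXA2-Venus genotype, a fluorescent reporter of the transcription factor that marks the floor plate of the neural tube. The BMP4 cells had 18 hours of retinoic acid (RA), 6 hours without treatment and then 8 hours of BMP4. A further arm, used beside them, had the same hours with an agent that the labels call LDN in place of BMP4 (3 FOXA2-negative libraries). The RA cells had 18 hours of RA, and no later hours are labelled for them, so BMP4 and time of collection cannot be told apart in the comparison with RA. FOXA2-positive cells of the BMP4 and RA arms (3 libraries each) share the model, and are used to check Foxa2, to set beside Gm17251 and to test whether the BMP4 response differs between the fractions. Retinoic acid is thus shared by every group.

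BMP4 is a secreted ligand of the TGF-beta superfamily. It binds type I and type II receptor kinases, which phosphorylate SMAD1, SMAD5 and SMAD9. These enter the nucleus with SMAD4 and switch on genes such as the Id family, together with inhibitory SMADs and secreted antagonists that dampen the signal. In the embryo BMPs pattern the dorsal neural tube and favour epidermal over neural fate.

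The 6 libraries held between 8435845 and 10248242 counts assigned to genes. Foxa2 had 1.75, 0.108 and 0.472 CPM (counts scaled to library size by TMM, edgeR's CPM) in BMP4 cells and 0.418, 0.294 and 0.22 CPM in RA cells, against 18.4 to 30.9 CPM in the FOXA2-positive libraries of the same 2 arms. Shh had 0 counts in the 6 libraries. The RA library numbered 1 stood apart, at -33.1 on a first principal component that held 36.3% of the variance, where the other 5 libraries lay between -2.14 and 22.4. It also had the highest mitochondrial share, 6.94% of counts, against 3.50% to 4.81% in the other 5. Of 19 endothelial and blood markers, 7 were at 0 in all 6 libraries, Cdh5 and Ptprc among them, and their summed level was 10.2 to 29.4 CPM in BMP4 cells and 19.9 to 34.3 CPM in RA cells. Of 13 fibroblast and cardiac muscle markers, 5 were at 0, among them Col3a1, Dcn and Postn. The sums were 31.4 to 44.2 CPM in BMP4 cells and 23.7 to 36.6 CPM in RA cells. Of the 7 tested, 4 had a positive and 3 a negative log2 fold change of BMP4 minus RA. Col1a1 averaged 8.84 CPM with BMP4 and 1.36 CPM with RA (log2 fold change 2.69, adjusted p = 0.319 in edgeR), and DESeq2 called it higher. In bulk libraries such as these, fewer cells of a type and less RNA per cell cannot be told apart.

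After BMP4 a small set of genes changed. Of 17813 genes tested, 14 (0.0786%) passed an adjusted p under 0.05, 10 of them higher (0.0561%) and 4 lower (0.0225%) in BMP4 cells than in RA cells. The higher genes were Id1, Id2, Id3, Tbx3, Unc5b, Ccnd2, Emb, Lbr, Slc30a3 and Ramp2, and the lower ones were Med16, Gm17251, Klhdc7a and G0s2. At an unadjusted p under 0.05 there were 608 higher genes (3.41%) and 703 lower genes (3.95%). The median log2 fold change over all genes was -0.01. The count of 14 was 7 without the RA library numbered 1, ranged from 5 to 9 as each of the 6 libraries was left out in turn, and was 3 (Id1, Id3 and Gm17251) when only these 6 libraries were fitted. Id1, Id2, Id3, Tbx3 and Gm17251 passed the test whichever of the 6 libraries was left out.

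**Figure D1:**
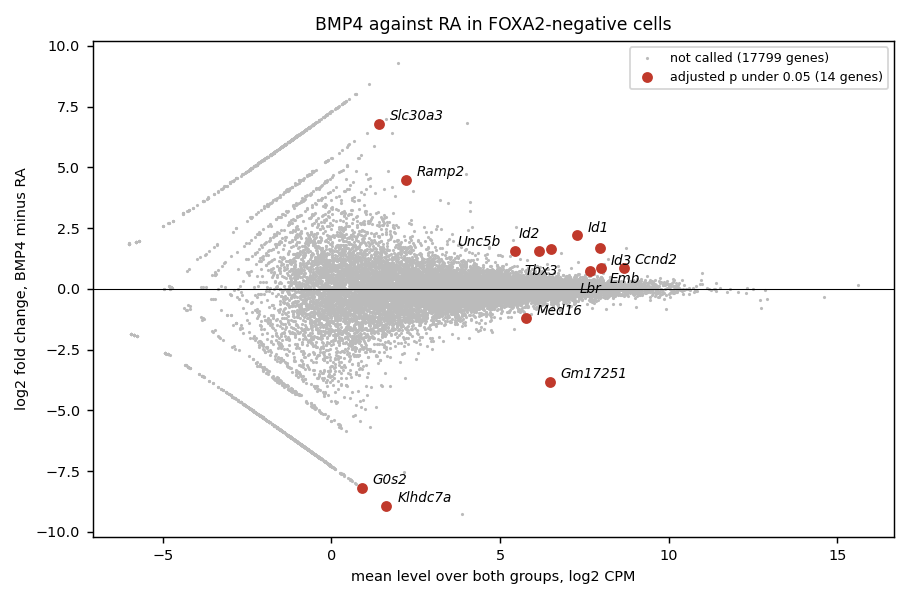
Each point is 1 of the 17813 genes tested, with its mean level over the BMP4 and RA FOXA2-negative libraries (x axis, log2 CPM) and its log2 fold change of BMP4 minus RA (y axis). The 14 genes with an adjusted p under 0.05 are coloured and named: 10 lie above 0 and 4 below, and the genes called at low levels (Slc30a3, Ramp2, G0s2, Klhdc7a) have the largest fitted changes.

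Promoters are shown for Id2 and Id3, the called Id genes with an entry, and for Emb, a called gene of similar level, to show where the letters that BMP-responsive SMADs are known to bind occur in them. The sequences are RefSeq's (GRCm38.p6), the 250 bases before RefSeq's start of the gene, 5′ to 3′ on the gene's strand, with each match to GGCGCC or GGAGCC on either strand in capitals. The windows lie at chr12:25096093-25096342 (minus strand) for Id2, chr4:136143572-136143821 (plus strand) for Id3 and chr13:117220323-117220572 (plus strand) for Emb. The gene spans given with the results are those of GENCODE, which for these 3 genes begin upstream of RefSeq's starts, so the windows lie within those spans.
Id2: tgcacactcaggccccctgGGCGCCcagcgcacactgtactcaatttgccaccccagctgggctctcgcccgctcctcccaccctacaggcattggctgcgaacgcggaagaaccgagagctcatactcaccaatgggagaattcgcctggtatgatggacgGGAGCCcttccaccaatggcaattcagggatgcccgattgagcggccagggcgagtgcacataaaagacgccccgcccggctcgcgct
Id3: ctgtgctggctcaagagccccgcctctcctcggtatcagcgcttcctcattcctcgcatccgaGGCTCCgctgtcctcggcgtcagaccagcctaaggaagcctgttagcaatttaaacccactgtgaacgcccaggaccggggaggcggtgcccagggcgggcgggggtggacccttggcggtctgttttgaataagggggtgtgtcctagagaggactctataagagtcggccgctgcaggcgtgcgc
Emb: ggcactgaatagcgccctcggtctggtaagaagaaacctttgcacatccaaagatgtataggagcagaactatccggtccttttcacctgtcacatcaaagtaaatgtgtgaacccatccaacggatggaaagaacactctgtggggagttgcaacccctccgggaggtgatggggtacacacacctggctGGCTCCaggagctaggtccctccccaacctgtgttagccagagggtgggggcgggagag
Of the 14 called genes, 10 had an entry (not Id1, Tbx3, Ccnd2 or Ramp2). GGCGCC stood in 2 of these 10, GGAGCC in 7 and the palindrome GTCTAGAC in 0, while 9.586%, 25.97% and 0.1674% of all 32851 RefSeq windows of this length held them. A match is a run of letters and not a shown binding site, and the number of genes is too small to set against those shares.

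The Id genes encode helix-loop-helix proteins that lack a DNA-binding region and hold back the basic helix-loop-helix factors that drive neuronal differentiation. All 4 family members were tested and 3 rose with BMP4. In 4 of 4 all BMP4 libraries lay above all RA libraries, as they did in 4.75% of all genes. The summed level of the family was 663 to 865 CPM in BMP4 cells and 200 to 235 CPM in RA cells.

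Id1 (ENSMUSG00000042745, chr2:152736251-152737410, mm10) had 282, 243 and 244 CPM in the BMP4 libraries and 48.9, 57.1 and 60.7 CPM in the RA libraries. Every BMP4 library was above every RA library, by a wide margin. The log2 fold change was 2.20 ± 0.29 (SE; adjusted p = 0.000498), and it was 2.13 (adjusted p = 0.00869) without the RA library numbered 1. Id3 (ENSMUSG00000007872, chr4:136143497-136145755) was the most abundant, at 431, 273 and 424 CPM with BMP4 and 97.5, 133 and 124.5 CPM with RA. The second BMP4 library was the lowest of its group, yet it stood above all of the RA libraries. The log2 fold change of Id3 was 1.67 ± 0.18 (adjusted p = 9.93e-06), or 1.55 without the RA library numbered 1 (adjusted p = 0.000183).

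Id2 (ENSMUSG00000020644, chr12:25093799-25097140) had 148, 146 and 121 CPM in BMP4 cells and 53.7, 28.5 and 49.95 CPM in RA cells. The groups did not overlap, and the log2 fold change was 1.65 ± 0.22 (adjusted p = 0.000498; 1.83 with adjusted p = 0.000595 without the RA library numbered 1). Id4, the family member of later neural progenitors, was barely detected, with 48 counts over the 3 BMP4 libraries and 2 over the RA libraries. That is a ratio of 24.3 with a counting interval of 6.38 to 207 (95%, exact binomial), and it did not pass the test (adjusted p = 0.675). Intervals and floors here cover counting error only.

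**Figure D2:**
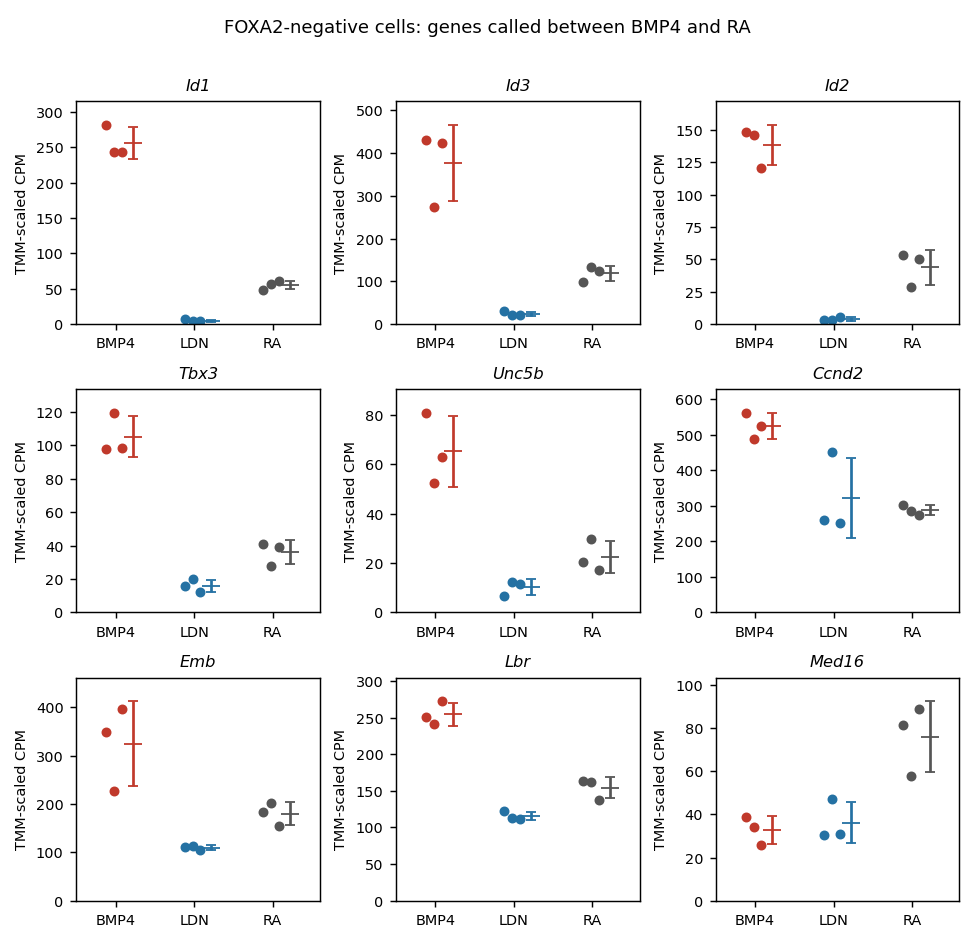
Points are the TMM-scaled CPM of each FOXA2-negative library in the BMP4, LDN and RA groups (3 each), with the mean and SD to the right of each group, for the 9 genes that the naming rule took from the BMP4 against RA comparison. For 8 of them every BMP4 library is above every RA library, and for Med16 every BMP4 library is below. The LDN libraries lie lowest in Id1, Id2, Id3, Tbx3, Unc5b, Emb and Lbr.

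Direct targets outside the Id family were taken from a list of 31 genes that BMP-SMADs are known to regulate in one tissue or another. Of 29 tested, 1 rose (Tbx3) and 0 fell in edgeR, while DESeq2 called Tbx3 and Msx1, both higher. Of the 29, 12 had all BMP4 libraries above all RA libraries and 1 had them below (4.75% and 5.71% of all genes). Their median log2 fold change was 0.98. Tbx3, a T-box repressor also counted among pluripotency genes (ENSMUSG00000018604, chr5:119670669-119684724), had 97.9, 119 and 98.6 CPM in BMP4 cells and 41.0, 27.7 and 39.1 CPM in RA cells. The groups were well apart, and the log2 fold change was 1.55 ± 0.23 (adjusted p = 0.00116; 0.00419 without the RA library numbered 1). An antisense gene, Tbx3os1, shares 697 bases with Tbx3 in the annotation, and the strand setting of the counting is not given in the sources used here.

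The homeobox genes Msx1, Msx2 and Dlx5 of the list had separated groups but missed the threshold in edgeR. Msx1, a marker of the dorsal neural tube, had 604, 410 and 931 CPM with BMP4 and 124, 188 and 299 CPM with RA (log2 fold change 1.67 ± 0.31, adjusted p = 0.0605). Its spread within both groups was wide, but the lowest BMP4 library was above the highest RA library. Its relative Msx2 had 23.4, 26.9 and 29.4 CPM against 8.15, 7.93 and 12.6 CPM in RA cells (1.47 ± 0.42, adjusted p = 0.368). Dlx5, a marker of the border between neural and epidermal ectoderm, had 38.9, 34.3 and 43.3 CPM in BMP4 cells and 18.2, 9.40 and 8.78 CPM in RA cells (1.68 ± 0.46, adjusted p = 0.313). Both genes kept all their BMP4 libraries above all of RA.

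The zinc finger factors Gata2 and Gata3, of non-neural ectoderm, had higher levels in every BMP4 library without passing the test. Gata3 had 31.3, 48.1 and 52.4 CPM in BMP4 cells and 15.1, 14.6 and 21.1 CPM in RA cells (1.38 ± 0.34, adjusted p = 0.217). Gata2 had 55.4, 54.5 and 60.4 CPM in BMP4 cells and 26.7, 25.2 and 14.2 CPM in RA cells (1.37 ± 0.56, adjusted p = 0.672). Hand1, a factor of mesoderm and trophoblast, had 23.04, 36.4 and 37.0 CPM in BMP4 cells. In RA cells it was lower and uneven, at 1.05, 7.05 and 0 CPM (3.56 ± 1.52, adjusted p = 0.672). Cdx2, the caudal homeobox gene, overlapped between the groups, with 60.3, 10.3 and 46.2 CPM in BMP4 cells and 15.1, 17.8 and 22.2 CPM in RA cells (1.08 ± 0.40, adjusted p = 0.598). None of these 4 passed the test.

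Genes that feed back on the pathway inside the cell made a list of 12, all tested, of which 0 passed in edgeR and 0 in DESeq2. At an unadjusted p under 0.05 there were 3 higher and 2 lower (3.41% and 3.95% of all genes). All BMP4 libraries lay above RA in 4 and below in 2 (4.75% and 5.71% of all genes). The median of the list was -0.04. Smad7, an inhibitory SMAD, had 21.3, 33.4 and 27.9 CPM with BMP4 and 12.96, 9.40 and 8.67 CPM with RA (1.41 ± 0.43, adjusted p = 0.496). Bambi, a decoy receptor without a kinase, had 14.0, 14.4 and 37.9 CPM with BMP4 and 0.941, 7.54 and 9.77 CPM with RA (1.86 ± 0.57, adjusted p = 0.477). Smad6, another inhibitory SMAD, averaged 10.5 CPM in BMP4 cells and 4.83 CPM in RA cells, and the co-repressor Skil averaged 535 CPM in BMP4 cells and 270 CPM in RA cells, both without overlap. Below were Smurf2, a ubiquitin ligase that targets SMADs, at 14.2, 9.78 and 14.4 CPM with BMP4 and 39.8, 28.4 and 34.4 CPM with RA (-1.42 ± 0.35, adjusted p = 0.223), and the co-repressor Ski (-0.58 ± 0.20, adjusted p = 0.586). The list thus held separated genes of both directions.

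Secreted antagonists numbered 19, of which 15 were tested and 0 passed in edgeR or DESeq2. At an unadjusted p under 0.05, 1 was higher (3.41% of all genes). Of the 15, 4 lay above and 1 below (4.75% and 5.71% of all genes), with a median of 1.37. The values behind that median were low. Nog, encoding noggin, which binds BMPs outside the cell, had 6.40, 6.99 and 11.2 CPM in BMP4 cells and 0.523, 3.04 and 5.93 CPM in RA cells (1.37 ± 0.92, adjusted p = 0.747). Chrdl2, a chordin-like antagonist, had 65 counts over the BMP4 libraries and 0 over the RA libraries, at least 22-fold higher when RA is set to 3 counts, the floor used for a group at 0 (adjusted p = 0.672). Crim1, a membrane protein that binds BMPs, lay below RA, at a mean of 2.29 ± 1.17 CPM in BMP4 cells and 6.21 ± 4.14 CPM in RA cells (SD, n = 3 each), a log2 fold change of -1.44 that did not pass the test (adjusted p = 0.672) and was -0.73 without the RA library numbered 1.

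Ligands, receptors and signal-carrying SMADs showed little movement. Of 33 listed, 25 were tested and 0 passed in edgeR, while DESeq2 called Smad9. At an unadjusted p under 0.05, 3 were higher (3.41% of all genes). Of the 25, 2 lay above (Bmp2 and Smad9) and 0 below (4.75% and 5.71% of all genes), and the median was -0.15. Smad9, which encodes a receptor-regulated SMAD of the BMP branch, had 6.40, 7.96 and 9.43 CPM in the BMP4 libraries and 0 counts in each RA library, that is 229 counts against 0, or at least 77.4-fold higher. Its adjusted p was 0.134, so the test did not call it. The type I receptor Bmpr1a overlapped, with 48.6, 52.4 and 32.0 CPM in BMP4 cells and 53.3, 31.0 and 31.7 CPM in RA cells.

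**Figure D3:**
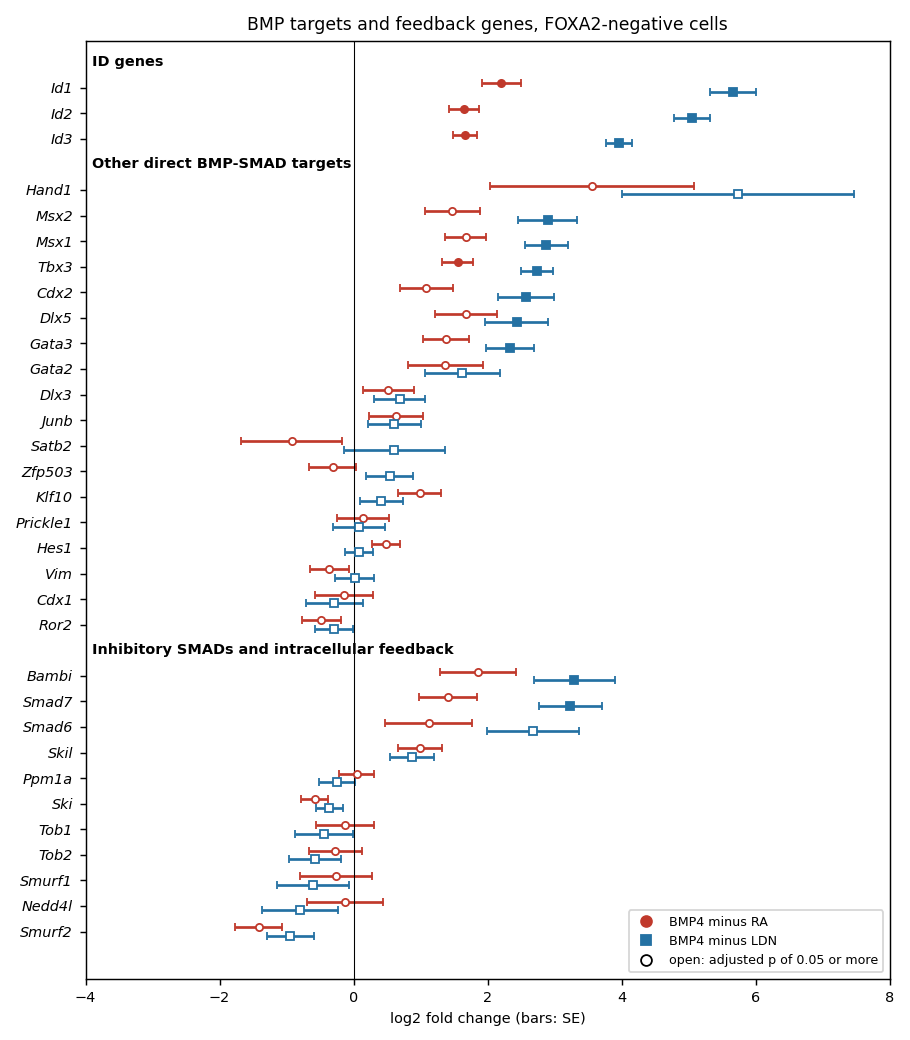
Log2 fold changes (x axis) with SE bars for the members of the Id, direct target and intracellular feedback lists that averaged at least 5 CPM over the 9 FOXA2-negative libraries, for BMP4 minus RA (circles) and BMP4 minus LDN (squares). Filled symbols passed an adjusted p under 0.05: Id1, Id2, Id3 and Tbx3 in both comparisons, and Msx1, Msx2, Cdx2, Dlx5, Gata3, Bambi and Smad7 against LDN alone. Both comparisons use the same 3 BMP4 libraries.

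The other called genes of at least 5 CPM on average are not on these lists, apart from Ccnd2. Unc5b, a netrin receptor (ENSMUSG00000020099, chr10:60762593-60831581), had 80.6, 52.3 and 62.7 CPM in BMP4 cells and 20.4, 29.7 and 17.2 CPM in RA cells (log2 fold change 1.54 ± 0.30, adjusted p = 0.0441). Ccnd2, cyclin D2 of the G1 phase (ENSMUSG00000000184, chr6:127125162-127152193), had 559, 487 and 525 CPM with BMP4 and 302, 286 and 273 CPM with RA (0.87 ± 0.16, adjusted p = 0.0371). Of 13 cyclins and inhibitors tested it was the 1 that passed in edgeR (0.0561% of all genes were called higher), and DESeq2 called Cdkn1c as well. At an unadjusted p under 0.05, 2 of the 13 were higher (3.41% of all genes). All BMP4 libraries lay above RA in 2 of the 13 and below in 0 (4.75% and 5.71% of all genes), with a median of 0.06. The inhibitor Cdkn1c lay above RA without passing in edgeR, at 198, 187 and 144 CPM in BMP4 cells and 116, 110 and 68.1 CPM in RA cells (0.85 ± 0.20, adjusted p = 0.147).

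Emb, embigin, an escort of lactate transporters to the membrane (ENSMUSG00000021728, chr13:117208536-117274415), had 348, 227 and 397 CPM in BMP4 cells and 184, 202 and 155 CPM in RA cells (0.85 ± 0.17, adjusted p = 0.0477). The second BMP4 library was only just above the highest RA library. Lbr, the lamin B receptor of the inner nuclear membrane (ENSMUSG00000004880, chr1:181815335-181843046), had 251, 241 and 272 CPM with BMP4 and 163, 162 and 138 CPM with RA (0.72 ± 0.14, adjusted p = 0.0441). These 4 calls stood close to the threshold. Ccnd2, Lbr and Unc5b lost theirs whichever of the 6 libraries was left out, with adjusted p values of 0.0655 to 0.158, 0.0681 to 0.194 and 0.0604 to 0.210. Emb lost its call in 5 of 6 cases (up to 0.307) and kept it without the BMP4 library numbered 2 (0.00363).

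Slc30a3 and Ramp2 were higher in BMP4 than in RA cells at low levels. They fall outside the rule on mean level, so they were singled out after their values were seen. Slc30a3, a zinc transporter of synaptic vesicles, had 8.96, 6.02 and 0.849 CPM with BMP4 and 0, 0 and 0.11 CPM with RA. That is 142 counts against 1 and a ratio of 144 (95% counting interval 25.4 to 5724, adjusted p = 0.0426). The LDN FOXA2-negative libraries held 125 counts of Slc30a3, a ratio to RA of 120 (95% counting interval 21.2 to 4786), so it was not higher with BMP4 alone. Ramp2, a partner protein of the adrenomedullin receptor, had 1.51, 11.8 and 13.4 CPM with BMP4 and 0.627, 0.0980 and 0.439 CPM with RA (4.49 ± 0.87, adjusted p = 0.0441). Their genes overlap Dnajc5g and Vps25 in the annotation, and how reads of overlapping genes were assigned is not known here. Each kept its call in 1 of the 6 cases with a library left out, Slc30a3 without the BMP4 library numbered 3 (0.0104) and Ramp2 without the one numbered 1 (0.00584).

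Med16, a tail subunit of the Mediator complex (ENSMUSG00000013833, chr10:79894708-79908923), fell to 38.7, 34.2 and 25.8 CPM in BMP4 cells, against 81.5, 57.6 and 88.8 CPM in RA cells. The groups did not overlap, and the log2 fold change was -1.21 ± 0.24 (adjusted p = 0.0477; 0.0507 to 0.277 with each library left out). In LDN cells it had 30.5, 47.0 and 31.1 CPM, which overlapped the BMP4 values and lay below those of RA.

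Gm17251, a predicted long noncoding RNA that shares a promoter region with Rab11b (ENSMUSG00000090952, chr17:33759992-33761870, plus strand), had the largest called decrease of those detected in both groups. It was singled out after its values were seen, since predicted genes fall outside the naming rule. It had 9.66, 8.82 and 16.4 CPM in BMP4 cells and 102, 170 and 226 CPM in RA cells (-3.83 ± 0.40, adjusted p = 9.49e-06; -4.07 with adjusted p = 3.95e-06 without the RA library numbered 1). The LDN libraries, at 12.5, 3.30 and 10.2 CPM, were as low as those of BMP4, and FOXA2-positive libraries of the RA arm had 5.20, 6.10 and 6.04 CPM. Among the 17 libraries the high level was found in the 3 RA FOXA2-negative ones alone. Rab11b, a GTPase gene on the opposite strand that shares 539 bases with it, had 89.7, 101 and 138 CPM with BMP4 and 74.2, 102 and 101 CPM with RA (0.25 ± 0.18, adjusted p = 0.792).

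Klhdc7a and G0s2 were undetected in the BMP4 libraries, and they too were singled out after their values were seen. Klhdc7a, a kelch-domain gene, had 0 counts in the 3 BMP4 libraries and 2.93, 5.68 and 9.99 CPM in the RA libraries, at least 58.2-fold lower (adjusted p = 0.0367). G0s2, an inhibitor of the fat-splitting enzyme ATGL, had 0 counts with BMP4 and 1.57, 7.05 and 2.53 CPM with RA, at least 36.2-fold lower (adjusted p = 0.0477). A group with 0 counts here allows up to 0.105 CPM in BMP4 cells. The LDN FOXA2-negative libraries held 132 counts of Klhdc7a and 104 of G0s2, at least 41.75-fold and 32.89-fold above BMP4. Unlike Med16 and Gm17251, these genes were thus not as low with LDN as with BMP4. The whole of G0s2 lies within Lamb3 on the other strand. G0s2 lost its call whichever library was left out (0.0535 to 0.205), and Klhdc7a kept it only without the RA library numbered 1 (0.0293; up to 0.140 otherwise).

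Set against LDN, which shares its labelled hours, BMP4 called more genes: 35 of 17813 (0.196%), 22 higher (0.124%) and 13 lower (0.073%). This comparison uses the same BMP4 libraries as the one with RA, so the 2 are given side by side and not as independent evidence. Id1 had 6.71, 3.98 and 4.51 CPM in the LDN libraries, Id2 3.25, 3.59 and 5.69 CPM, and Id3 29.98, 21.8 and 20.7 CPM. The RA cells therefore lay between BMP4 and LDN cells for each of these genes. The log2 fold changes of BMP4 minus LDN were 5.66 ± 0.35 for Id1 (adjusted p = 4.92e-10), 5.04 ± 0.27 for Id2 (1.76e-12) and 3.96 ± 0.20 for Id3 (8.91e-13).

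The same order held for Tbx3, with 15.8, 19.7 and 12.0 CPM in LDN cells (BMP4 minus LDN 2.73 ± 0.24, adjusted p = 6.97e-08), for Unc5b with 6.81, 12.5 and 11.6 CPM (2.66 ± 0.32, 1.82e-05), for Emb (1.56 ± 0.17, 5.72e-06) and for Lbr (1.14 ± 0.14, 4.27e-05). Ccnd2 did not pass against LDN (0.70 ± 0.16, adjusted p = 0.0721), where 1 LDN library stood at 452 CPM and the others at 252 and 260. Of the target and feedback lists, 7 genes that missed the threshold against RA passed it against LDN, the homeobox genes Msx2, Dlx5 and Cdx2 among them. Msx1 had 83.8, 112 and 68.5 CPM in LDN cells (2.88 ± 0.32, adjusted p = 0.000293), Smad7 had 2.10, 2.43 and 4.22 CPM (3.23 ± 0.47, 0.000544), Gata3 had 7.76, 9.71 and 8.63 CPM (2.33 ± 0.35, 0.000836) and Bambi had 2.83, 1.36 and 2.55 CPM (3.29 ± 0.61, 0.0098).

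LDN against RA called 7 genes (0.0393%), of which 5 (0.0281%) were lower in LDN cells (Id1, Id2, Id3 and Gm17251 among them) and 2 (0.0112%) higher (Slc2a1 and the microtubule gene Map1b). It shares its RA libraries with the BMP4 comparison. LDN minus RA was -3.46 ± 0.32 for Id1 (adjusted p = 1.49e-06), -3.39 ± 0.25 for Id2 (1.03e-08) and -2.29 ± 0.19 for Id3 (3.11e-08). Tbx3 lay lower in all LDN libraries too but missed the threshold (-1.18 ± 0.23, adjusted p = 0.056).

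Of 22 dorsal neural tube genes tested, 0 passed in edgeR, while DESeq2 called Msx1. At an unadjusted p under 0.05, 5 were higher and 2 lower (3.41% and 3.95% of all genes). Of them 5 lay above and 2 below without overlap (background 4.75% and 5.71%), and the median was 0.56. The lists share members, and Msx1 and Msx2 were already counted among the direct targets. Besides Msx1 and Msx2, the homeobox gene Lhx2 lay above, at 9.77, 15.8 and 13.6 CPM in BMP4 cells and 1.67, 4.02 and 1.98 CPM in RA cells (2.35 ± 0.79, adjusted p = 0.581). Draxin, a repulsive guidance factor of the dorsal cord, had 23.4, 17.5 and 10.5 CPM with BMP4 and 0.627, 8.33 and 3.95 CPM with RA (1.99 ± 0.76, adjusted p = 0.645). Pax3 overlapped between BMP4 and RA (0.55 ± 0.44, adjusted p = 0.815) and passed against LDN, with 12.0, 7.85 and 18.1 CPM in BMP4 cells and 2.31, 2.62 and 1.47 CPM in LDN cells (2.56 ± 0.47, adjusted p = 0.0098).

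Surface ectoderm genes were split. Of 29 tested, 0 passed in edgeR, while DESeq2 called Tfap2a. At an unadjusted p under 0.05, 5 were higher and 1 lower (3.41% and 3.95% of all genes). Of the 29, 5 lay above RA and 4 below (4.75% and 5.71% of all genes), with a median of 0.09. The 5 above were transcription factors: Tfap2a, Dlx5, Dlx6, Gata2 and Gata3. All but Tfap2a were already counted among the direct targets. Tfap2a, the AP-2 factor of epidermal and neural crest fates, had 156, 161 and 173 CPM with BMP4 and 33.6, 65.4 and 76.0 CPM with RA (1.49 ± 0.39, adjusted p = 0.313), and passed against LDN at 20.4, 34.1 and 27.6 CPM (2.58 ± 0.40, adjusted p = 0.00401). Its BMP4 libraries were tight and far above the others. Among epithelial structural genes Cdh1, E-cadherin, had 91.1, 99.1 and 105 CPM with BMP4 and 156, 132 and 112 CPM with RA (-0.44 ± 0.19, adjusted p = 0.672), and Krt8 and Krt18 overlapped (-0.27 ± 0.26 and 0.16 ± 0.17).

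**Figure D4:**
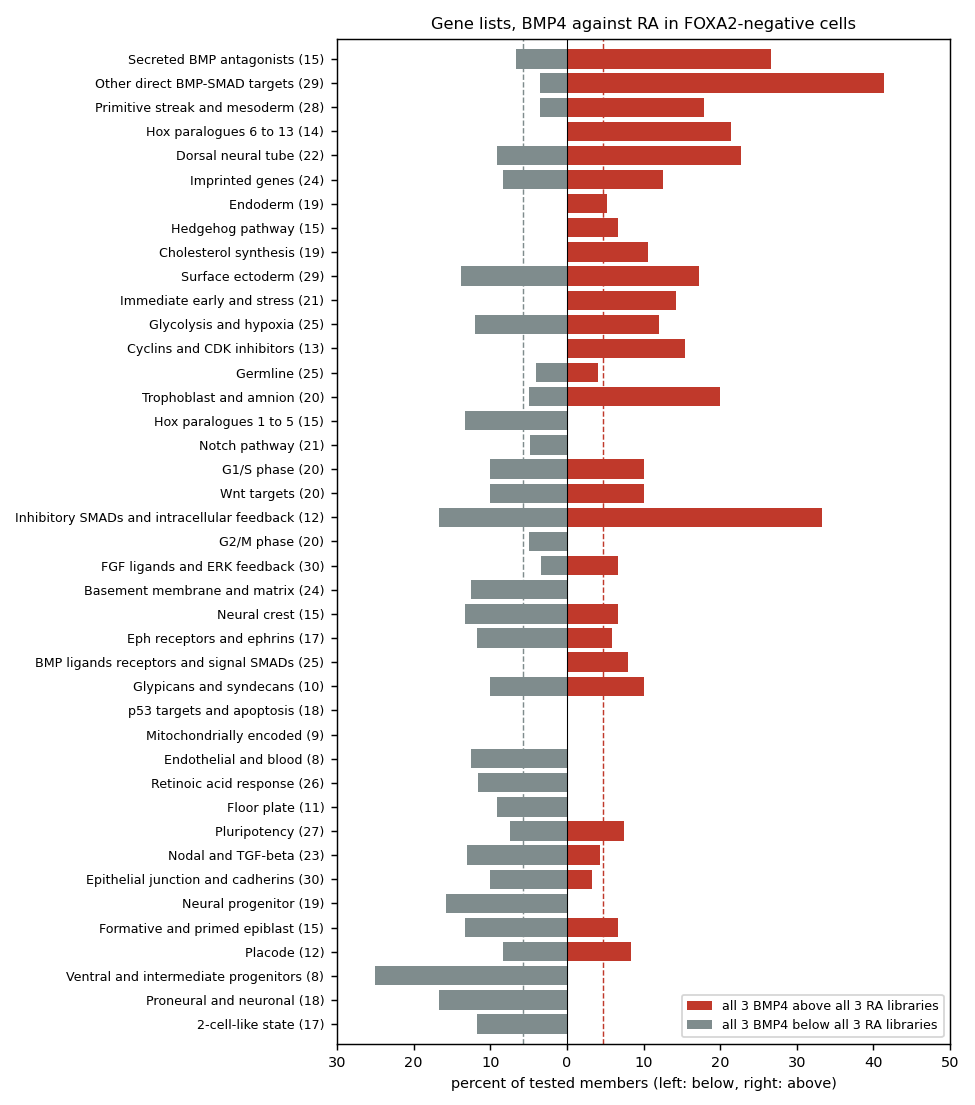
For each gene list with at least 8 tested members (number in brackets), bars give the percent of members whose 3 BMP4 libraries all lie above (right) or all lie below (left) the 3 RA libraries. Dashed lines mark the share over all 17813 genes, 4.75% above and 5.71% below. Lists run from the highest median log2 fold change at the top to the lowest, and the direct targets (12 of 29) and intracellular feedback genes (4 of 12) have the longest bars to the right.

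Of 19 neural progenitor genes tested against RA, 0 passed in edgeR, while DESeq2 called Sox2, lower. At an unadjusted p under 0.05, 4 were lower (3.95% of all genes). Of the 19, 0 lay above RA and 3 below (4.75% and 5.71% of all genes), and the median was -0.31. Sox2, a factor of neural progenitors and pluripotent cells, had 63.5, 55.3 and 45.7 CPM in BMP4 cells and 128, 80.3 and 91.8 CPM in RA cells (-0.87 ± 0.20, adjusted p = 0.104), and -0.64 (adjusted p = 0.587) without the RA library numbered 1. Pax6 had 28.7, 24.9 and 21.2 CPM with BMP4 and 42.4, 29.0 and 43.5 CPM with RA (-0.62 ± 0.24, adjusted p = 0.645). Sox1, an early neural plate gene, had 5.58, 6.77 and 4.06 CPM with BMP4 and 20.8, 5.78 and 9.77 CPM with RA, which overlap (-1.15, or -0.50 without the RA library numbered 1). Sox1 was lower in BMP4 than in LDN cells, which had 23.0, 39.1 and 30.7 CPM (-2.50 ± 0.41, adjusted p = 0.00253). Against LDN, 0 of the 19 genes lay above (5.32% of all genes) and 8 below (5.93%) without overlap. LDN itself differed from RA in part of this list. For LDN against RA, 4 of the 19 were higher and 0 lower at an unadjusted p under 0.05, with a median of 0.33. Over all 17813 genes, 624 were higher and 712 lower in that comparison. Every LDN library of Sox1 also stood above every RA library. Of 18 proneural and neuronal genes, 0 passed in edgeR, 0 in DESeq2 and 0 at an unadjusted p under 0.05. Among these 18, 0 lay above RA and 3 below (4.75% and 5.71% of all genes), with a median of -0.52. Tubb3, neuronal tubulin, was among the 3 (-0.42 ± 0.32, adjusted p = 0.797). Without the RA library numbered 1, 2 of the 18 lay above and 3 below (8.24% and 9.59% of all genes).

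Of 26 RA response genes, 0 lay above and 3 below (4.75% and 5.71% of all genes), with a median of -0.18. In edgeR or DESeq2 0 passed, and 7 were lower at an unadjusted p under 0.05 (3.95% of all genes). Stra6, the receptor for retinol-binding protein, had 18.5, 10.3 and 23.1 CPM with BMP4 and 25.6, 58.3 and 32.7 CPM with RA (-1.17 ± 0.32, adjusted p = 0.313). It was lower in BMP4 than in LDN cells, which had 67.6, 82.7 and 68.4 CPM (-2.07 ± 0.32, adjusted p = 0.00116). Stra8, the most abundant of these, had 889, 817 and 510 CPM with BMP4 and 1093, 833 and 912 CPM with RA, which overlap. In 27 pluripotency genes, 2 lay above (Tbx3 and Sall4) and 2 below (Sox2 and Klf5), numbers near the 4.75% and 5.71% of all genes. In edgeR 1 of the 27 passed (Tbx3, higher, where 0.0561% of all genes were called higher), and DESeq2 called Tbx3 higher and Sox2 lower. At an unadjusted p under 0.05, 2 were higher and 4 lower (3.41% and 3.95% of all genes), the 4 being Klf5, Sox2, Tet2 and Zfp42.

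**Figure D5:**
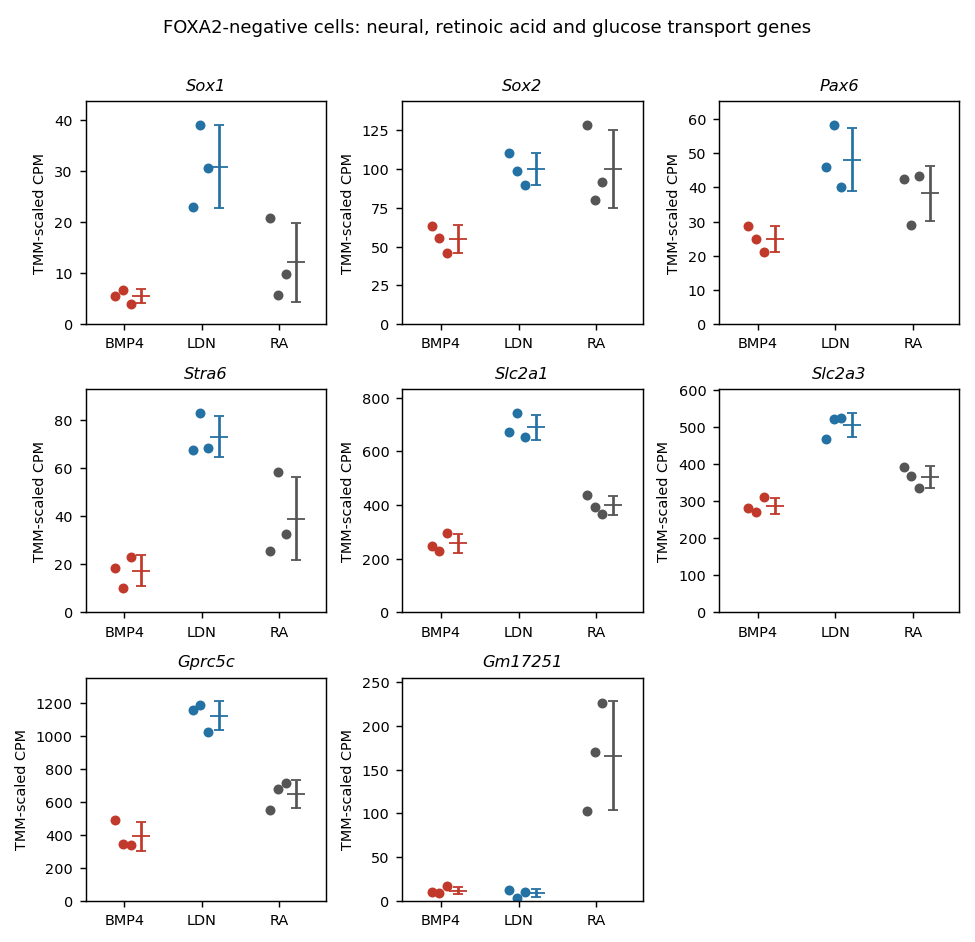
Points are the TMM-scaled CPM of each FOXA2-negative library in the BMP4, LDN and RA groups (3 each), with mean and SD to the right, for neural (Sox1, Sox2, Pax6), RA-related (Stra6) and glucose transport genes (Slc2a1, Slc2a3), and for Gprc5c and Gm17251. Slc2a1, Slc2a3, Stra6, Sox1 and Gprc5c run from BMP4 at the low end through RA to LDN at the high end, while Gm17251 is high in RA cells alone.

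The glucose transporter genes Slc2a1 and Slc2a3 were lower in BMP4 than in LDN cells. For Slc2a1, LDN also lay above RA (LDN minus RA 0.79 ± 0.13, adjusted p = 0.00767). Slc2a1, the GLUT1 transporter, had 247, 230 and 295 CPM with BMP4 and 672, 742 and 653 CPM with LDN (-1.42 ± 0.13, adjusted p = 1.92e-07). The RA libraries, at 437, 391 and 368 CPM, lay above BMP4 and just missed the threshold in edgeR (BMP4 minus RA -0.63 ± 0.13, adjusted p = 0.0533), and DESeq2 called it. Slc2a3, the GLUT3 transporter, had 282, 270 and 312 CPM with BMP4, 469, 523 and 527 CPM with LDN and 394, 370 and 335 CPM with RA, and passed against LDN (-0.81 ± 0.14, adjusted p = 0.00327) and not against RA (-0.35 ± 0.14, adjusted p = 0.67). Gprc5c, an orphan receptor of the retinoic acid-inducible family, named after its values were seen, took the same course, at 493, 344 and 338 CPM with BMP4, 1158, 1191 and 1028 CPM with LDN and 554, 677 and 718 CPM with RA (BMP4 minus LDN -1.52 ± 0.16, adjusted p = 1.85e-06; BMP4 minus RA -0.73 ± 0.16, adjusted p = 0.07 in edgeR, called by DESeq2). Within glycolysis and hypoxia genes as a whole, 0 of 25 passed against RA in edgeR, and DESeq2 called Ldha higher and Slc2a1 lower. At an unadjusted p under 0.05, 1 was higher and 2 lower (3.41% and 3.95% of all genes). Of the 25, 3 lay above RA and 3 below, where 4.75% and 5.71% of all genes did. Ldha, lactate dehydrogenase A, was one above, at 234, 188 and 271 CPM with BMP4 and 137, 147 and 144 CPM with RA (0.70 ± 0.17, adjusted p = 0.199).

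Of the Hedgehog list, 1 of 15 lay above RA and 0 below, near the 4.75% and 5.71% of all genes, and 3 lay above without the RA library numbered 1 (8.24% of all genes). In edgeR 0 passed, and DESeq2 called Gli1. At an unadjusted p under 0.05, 2 were higher (3.41% of all genes). Gli1, the transcriptional target and effector, had 24.7, 21.4 and 12.5 CPM with BMP4 and 7.11, 3.92 and 3.84 CPM with RA (1.98 ± 0.45, adjusted p = 0.114 in edgeR). The receptor gene Ptch1 overlapped (1.21 ± 0.41, adjusted p = 0.59) and was at 1.82 without the RA library numbered 1 (adjusted p = 0.0985).

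Whether the response of FOXA2-negative cells differs from that of FOXA2-positive cells was tested directly. In FOXA2-positive cells 14 genes passed for BMP4 minus RA (0.0786%), and Id1, Id2, Id3, Tbx3 and Unc5b were among them, with log2 fold changes of 1.76 ± 0.28 for Id1, 1.31 ± 0.22 for Id2, 1.39 ± 0.18 for Id3, 2.78 ± 0.24 for Tbx3 and 1.83 ± 0.30 for Unc5b. The test of the difference called 1 gene of 17813 (0.00561%), Gm17251, at -4.04 ± 0.54 (adjusted p = 0.00133). None of the Id genes passed it. The difference was 0.44 ± 0.39 for Id1, 0.35 ± 0.31 for Id2 and 0.28 ± 0.25 for Id3, each with adjusted p = 1, and -1.23 ± 0.32 for Tbx3 (adjusted p = 0.906). A p of this size does not show that the fractions respond alike.

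Krt18, a keratin of simple epithelia, had the smallest p after Gm17251 among the genes the naming rule takes. FOXA2-negative cells had 150, 176 and 173 CPM with BMP4 and 122, 170 and 154 CPM with RA, while FOXA2-positive cells had 248, 248 and 257 CPM with BMP4 and 75.2, 86.5 and 121 CPM with RA. The groups overlapped in FOXA2-negative cells and stood apart in FOXA2-positive cells, but the difference between the fractions did not pass (-1.25 ± 0.24, adjusted p = 0.197). Med16 (-1.43 ± 0.34), Klhdc7a and Ramp2 followed, each with adjusted p = 0.867, as did Cfc1, a Nodal co-receptor gene, with 2 counts over the BMP4 and 104 over the RA FOXA2-negative libraries.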

How the data were processed

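Per the labels, libraries were made by SMART-Seq v2 from total RNA. The authors deposited raw counts per Ensembl gene, 1 table per library, made with UMI-tools 1.0.0, cutadapt 1.18 and HTSeq 0.11.2 on mm10, per the submitters' processing notes. Aligner, annotation release and strand setting were not given in the sources used here. Each table held 49671 genes, and 5 summary lines (49.3% to 54.4% of tallied reads in the 6 libraries) stayed out. Symbols for 49326 genes came from GENCODE M21 (GRCm38).

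Groups came from the titles. No label says that the libraries of a group are separate cultures, and p-values therefore reflect the spread among these libraries, possibly technical. Members and gene lists were chosen with earlier results of these data known. Counts were analysed with edgeR 4.0.16 (R 4.3.3): filterByExpr (minimum count 10, total 15), TMM scaling, and 1 robust quasi-likelihood model of all 17 libraries in 6 groups with 11 residual degrees of freedom. Every p is from this quasi-likelihood test, adjusted by Benjamini-Hochberg over 17813 genes, with a threshold of 0.05, unless an alternative is named. Fits with libraries left out were filtered, scaled and adjusted anew over their own genes, and DESeq2 calls come from its own test. SE is approximate, from the log2 fold change and the F statistic. Genes were named at a mean of at least 5 CPM without overlap of the groups, or as list members. Predicted genes were left out. With 0 counts in a group, folds use a floor of 3 counts over the group. List medians were the same with such members at their bound. The pipeline was tested on simulated data. Their spread was set below the common spread fitted here, and changes were planted in well-counted genes only. That test therefore gives no error rate for these libraries or for genes at low counts. Numbers did not pair the BMP4 and RA FOXA2-negative libraries throughout (correlations of same-numbered deviations 0.283, 0.00211 and 0.100 over 6669 genes, limit 0.1). Pairing between the fractions of an arm was not checked. Alternatives included DESeq2 1.42.0. Results on some of the genes tested are not reported here.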

Additional observations from a re-analysis of the deposited data

Results flagged for a closer look

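Gm17251, the predicted noncoding RNA beside Rab11b, was the gene called for a difference in BMP4 minus RA between the fractions. The difference was -4.04 on the log2 scale (FOXA2-negative minus FOXA2-positive, adjusted p = 0.00133). It had 9.66, 8.82 and 16.4 CPM with BMP4 and 102, 170 and 226 CPM with RA in FOXA2-negative cells, and 7.09, 6.70 and 6.20 CPM with BMP4 and 5.20, 6.10 and 6.04 CPM with RA in FOXA2-positive cells. All 3 RA FOXA2-negative libraries carried the high level. The LDN FOXA2-negative libraries were as low as those of BMP4, and LDN against RA called the gene lower as well, so the low level was not particular to BMP4.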

How the results depend on the processing

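For BMP4 against RA, 14 genes passed. The count was 60 with DESeq2, 94 without a filter on low counts, 3 with only the compared groups in the fit, 9 without both RA libraries numbered 1 and 5 to 9 with 1 library left out. With the replicate number as a block it was 6, and 9 with that block among the compared groups alone (added after seeing the data). The labels give same-numbered libraries of different arms nothing in common but the number. Within an arm, FOXA2-negative and FOXA2-positive libraries also share title numbers, and the model did not pair them. The RA libraries numbered 1 had the highest mitochondrial share of each fraction, 6.94% (FOXA2-negative) and 7.43% (FOXA2-positive). Whether such libraries came from 1 culture is not labelled. The best-matching RA library for BMP4 libraries 1, 2 and 3 was number 1, 3 and 2. For BMP4 against LDN, 35 genes passed, 117 with DESeq2, 141 without a filter, 53 without both RA libraries numbered 1 and 25 to 36 with 1 left out. For LDN against RA, 7 passed, 39 with DESeq2, 83 without a filter, 4 with the compared groups alone and 4 to 11 with 1 left out. For the difference between fractions 1 passed, 5 with DESeq2, 31 without a filter, 2 with the block and 1 or 2 with 1 left out. RLE scaling, the stricter filter and leaving out mitochondrial genes kept every count within 1.5 times. The causes were not tested. Of named genes, Foxa2 changed sign, with no call, as 1 library was left out (-0.0595 to 1.75, lowest without the BMP4 library numbered 1). Id1, Id2, Id3, Tbx3 and Gm17251 kept their BMP4 against RA calls with DESeq2 and with the block. Without the RA library numbered 1 (added after seeing the data), 12 of 29 direct targets lay above RA and 1 below, against 8.24% and 9.59% of all genes, with 4 and 2 of 12 feedback genes and 2 and 4 of 19 neural progenitor genes.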
